A study of Homo sapiens with 8 samples.

Results

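Fibronectin and 8 matricellular proteins were followed through a LARP6 knockdown of hepatic stellate cells of human origin, the main makers of scar matrix in injured liver. The genes are FN1, POSTN, TGFBI, THBS1, THBS2, CCN1, CCN2, SPARC and TNC, taken by name from the authors' deposited table of translation efficiency. All 9 were in the table, each as 1 of its 12109 transcripts. The 8 libraries formed 4 groups of 2: ribosome profiling of LARP6 knockdown cells, RNA-seq of LARP6 knockdown cells, ribosome profiling of control cells and RNA-seq of control cells. Knockdown cells received a silencing RNA against LARP6 (labelled dsiLARP6, genotype LARP6 kd), and control cells received dsi-control (genotype WT). All cultures were kept in DMEM with serum, and the label gives HSCs as the name of the cell line, with no clone or donor stated. Translation efficiency is the number of ribosome-protected footprints of a message relative to its RNA. The changes of footprints and of RNA are not given apart, so a lower efficiency need not mean fewer footprints.

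For each transcript a single log2 change, knockdown over control, was deposited, with no values of single libraries. The values therefore carry no replicate spread, standard error or read depth, and their precision rests on the authors' p-values. The labels do not say that replicates came from separate cultures, so these p-values may measure technical spread only. The libraries are bulk, so fewer cells of a type and less RNA per cell cannot be told apart. Of 22 listed stellate cell markers 14 were in the table, among them ACTA2, PDGFRB, COL1A1 and VIM, while DES, GFAP and LRAT were not among its rows. From the lists for other liver cells, 2 of 20 hepatocyte, 2 of 12 endothelial, 2 of 18 leukocyte and Kupffer cell and 3 of 8 biliary and epithelial markers were in the table. The authors' deposited table lists LARP6 itself at a log2 change of 0.07 (adjusted p = 0.981), a ratio that does not check the loss of its RNA.

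Fibronectin is a large secreted glycoprotein that cells assemble into fibrils, on which other matrix proteins, collagen among them, are laid down. Matricellular proteins are secreted into the matrix but act mainly by binding receptors, growth factors and proteases. Most are scarce in resting adult tissue and are made during wound repair and fibrosis, and activated stellate cells are a known source in liver. LARP6, of the La-related family, is known for binding a stem-loop in collagen messages. The comparison asks how far the translation efficiency of these messages depends on it.

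The transcripts behind the values differ widely in build, although all code for secreted proteins. On GENCODE release 29 (GRCh38), the coding length ran from 912 bases in SPARC to 7434 bases in FN1, and 6 of the 9 exceeded the median of 1394 bases among the table's 10456 protein-coding transcripts with an annotated ATG start. The 5′ UTR ran from 118 bases in POSTN to 412 bases in TNC, against a median of 187 bases. The 3′ UTR ran from 591 bases in TGFBI to 4097 bases in THBS1, against a median of 1046 bases. POSTN stood apart in base composition, with 39.0% GC over the transcript and 49.2% GC in the 5′ UTR, which placed its 5′ UTR at percentile 6.08 of the protein-coding transcripts. The 5′ UTRs of CCN1, CCN2 and TGFBI held 78.1%, 75.6% and 74.5% GC. An ATG upstream of the start occurred in 3 members, namely 3 times in SPARC, 2 times in POSTN and 1 time in TNC, and in 49.2% of the protein-coding transcripts (ATG on the sense strand, overlaps allowed).

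**Figure D1:**
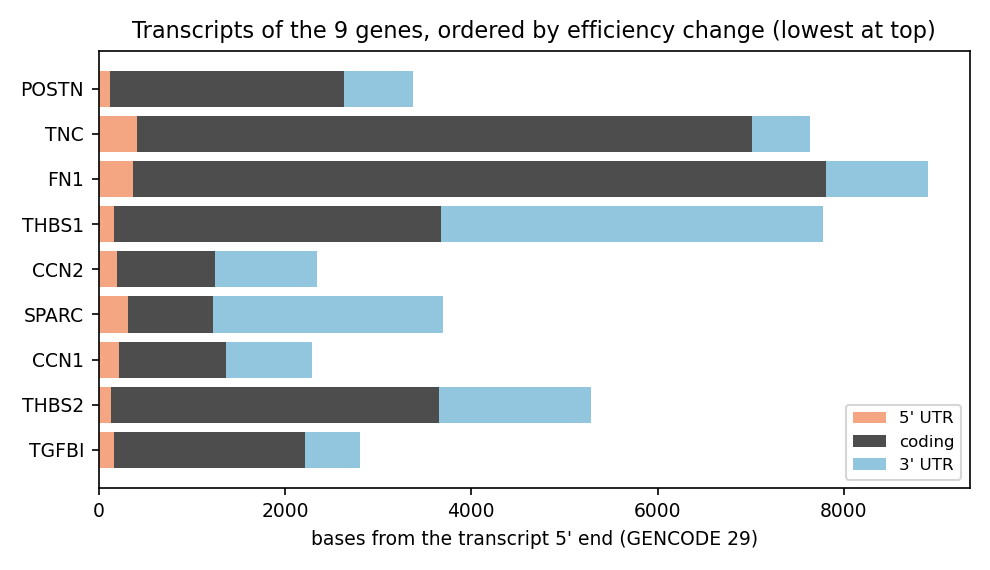
Length in bases of the 5′ UTR, coding region and 3′ UTR of the transcript behind each gene's value, ordered from the lowest efficiency change at the top to the highest at the bottom. FN1 and TNC have the longest coding regions (7434 and 6606 bases), and THBS1 has the longest 3′ UTR (4097 bases).

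The start codon and its flanks, where the scanning ribosome selects the reading frame, are shown for each member because translation begins there. Each line gives, from the GENCODE 29 transcript, 9 bases before the ATG and 3 after it, with the ATG, position −3 and position 4 in capitals, the A of the ATG being position 1.
POSTN: agactcAagATGAtt
TGFBI: tcccgcTccATGGcg
FN1: cgtctcAacATGCtt
THBS1: agctccAccATGGgg
THBS2: ggaggcAggATGGtc
CCN1: cgcgccAcaATGAgc
CCN2: gtgccaAccATGAcc
SPARC: cccagcAccATGAgg
TNC: acctccAccATGGgg
The first capital is A in 8 of the 9 members, against 45.9% of the 10206 protein-coding transcripts with enough sequence, and it is a pyrimidine in TGFBI alone among the members. A purine there occurs in 87.0% of those transcripts. The favoured pattern of a purine at that position followed by G at position 4 (ANNATGG or GNNATGG, sense strand) was present in THBS1, THBS2 and TNC and in 46.9% of the transcripts. These matches describe the sequence only.

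After LARP6 knockdown, the translation efficiency of 4 of the 9 messages fell, that of 1 rose, and 4 did not pass the test. The authors' deposited table lists log2 changes of −1.33 for POSTN, −0.56 for FN1, −0.42 for THBS1 and −0.35 for CCN2, all lower, and of 0.46 for TGFBI, which was higher. TNC, SPARC, THBS2 and CCN1 missed an adjusted p of 0.05. Of all transcripts in the table, 1.12% passed as lower and 1.07% as higher, or 2.2% in either direction. The members' median log2 change was −0.35 in the authors' deposited table, against 0.02 over all its transcripts, and 7 of the 9 lay below 0, against 47.3% of all transcripts. An unadjusted p under 0.05 was listed for 7 of the 9, against 10.3% of all transcripts in the authors' deposited table. Most called changes of the members were small among called transcripts. By size, POSTN ranked 30th, FN1 117th, THBS1 131st and CCN2 135th of the 136 called falls, and TGFBI 124th of the 130 called rises. Read depth is unknown, so its part in these shares was not tested. With Bonferroni adjustment 2 members stayed lower and 1 higher, against 0.454% and 0.438% of all transcripts, and with a minimum of 1.5-fold 1 was lower and 0 higher, against 0.925% and 0.801%. At an adjusted p under 0.01, 3 members were lower and 1 higher, against 0.809% and 0.71% of all transcripts. The 4 falls and the single rise were the same in 4 other settings. These were an adjusted p under 0.1 (1.45% of all transcripts lower, 1.36% higher), the first of the authors' methods alone (1.6% and 2.17%), the second alone (1.34% and 1.49%) and protein-coding transcripts alone (1.24% and 1.12%). Of these settings, all but the last could add a call but could not end one. The deposited final p-value is the larger of both methods', and 0.1 is looser than 0.05. All values are relative to the typical transcript, so a change shared by every message would not show.

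**Figure D2:**
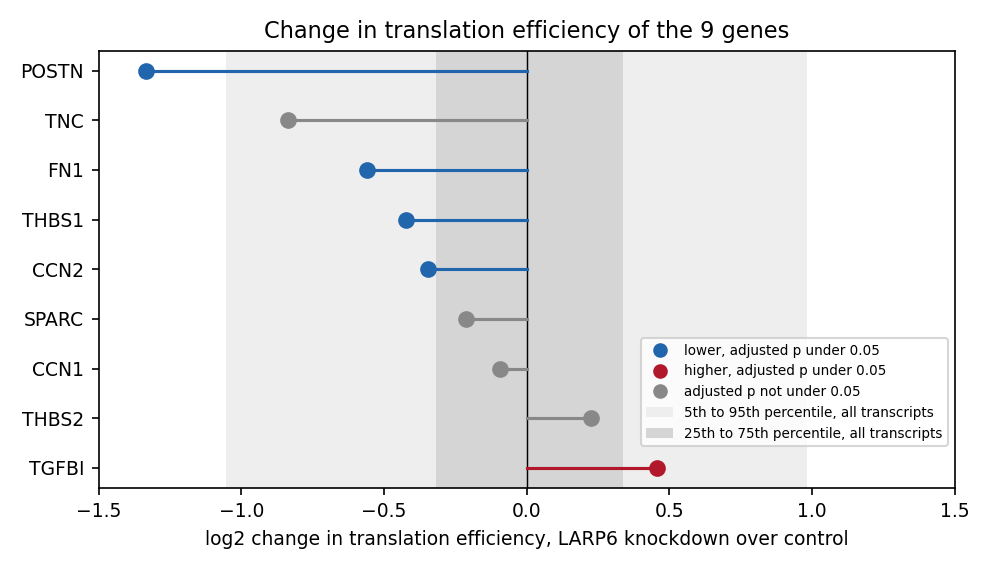
Log2 change in translation efficiency (horizontal axis, LARP6 knockdown over control) of each gene in the authors' deposited table, with bands for the middle ranges of all transcripts. POSTN at −1.33 lies below the 5th percentile of all transcripts (−1.05), and TGFBI at 0.46 is the called gene above 0. The table gives no error for these values.

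Fibronectin, FN1 (chromosome 2, 215360454 to 215436172, minus strand, 46 exons), had a log2 efficiency of −2.68 in knockdown cells, against a derived −2.12 in control cells. It was thus 1.48-fold lower in the knockdown, which the authors' deposited table lists with an adjusted p of 1.6e-05. In both conditions its efficiency value was the lowest of the 9, at percentile 2.16 of all transcripts in knockdown cells and 4.34 in control cells. Such a ranking of different genes also depends on which part of each transcript was counted, which is not given. The transcript behind the value carries both of the cassette exons that distinguish cellular fibronectin, extra domain B as exon 25 (273 bases, chr2:215392931-215393203) and extra domain A as exon 33 (270 bases, chr2:215380811-215381080). Of the other annotated FN1 coding transcripts that span them, 7 of 9 skip the first and 6 of 10 skip the second. The table has a single FN1 row, so the forms with and without these domains cannot be told apart.

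POSTN and TGFBI, the paralogues periostin and transforming growth factor beta induced protein, went in opposite directions. Both are built around repeated fasciclin domains and bind integrins and collagen. POSTN (chromosome 13, 37562589 to 37598844, minus strand, 23 exons) had a log2 efficiency of −0.45 in knockdown cells and a derived 0.89 in control cells. It fell 2.52-fold (the authors' deposited table, adjusted p = 7.4e-08), the largest change of the 9 and the 30th largest of the 136 called falls. TGFBI (chromosome 5, 136028895 to 136063817, plus strand, 17 exons) had a log2 efficiency of 0.55 in knockdown cells and a derived 0.10 in control cells. It rose 1.37-fold (the authors' deposited table, adjusted p = 0.000268).

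The order of the fasciclin genes was therefore opposite in the 2 conditions. The log2 efficiency of POSTN minus that of TGFBI was −0.996 in knockdown cells and 0.79 in control cells, a shift of −1.79 in the log2 change. The 2 proteins are 46.0% identical over 676 aligned residues of the translated transcripts, and no 30-base window of either transcript occurs in a transcript of another gene. The POSTN row is the longest of 6 annotated coding forms and includes the cassette exons 17, 18, 19 and 21 near its end (345 bases in all), each of which at least 1 other form skips. The 2 genes differ in base composition, with 38.5% G or C at the third position of codons in POSTN and 66.8% in TGFBI.

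**Figure D3:**
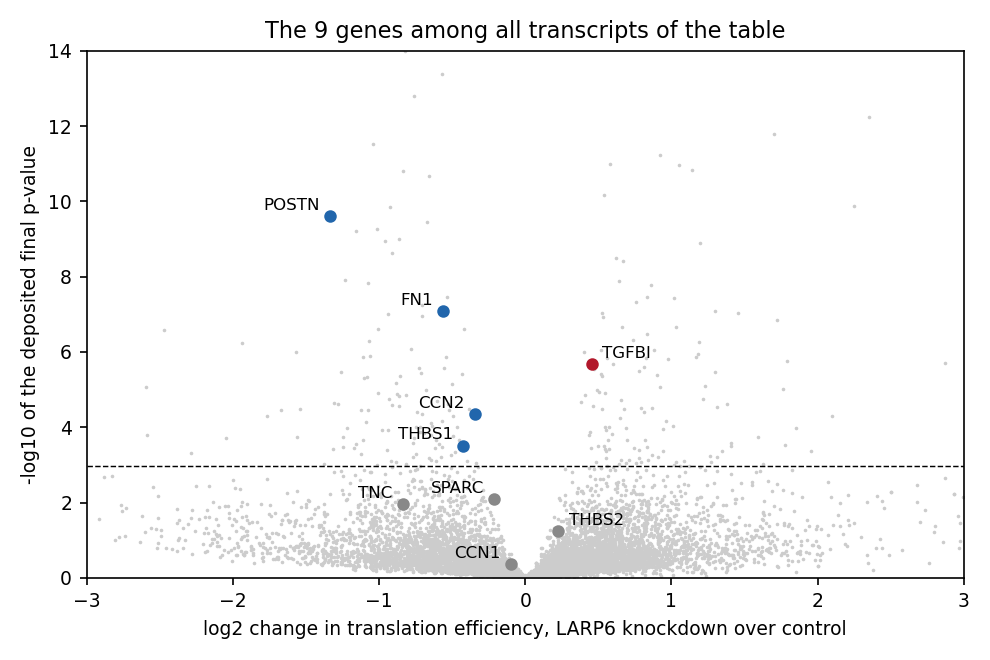
Each point is a transcript of the authors' deposited table, placed by its log2 change in translation efficiency (horizontal axis, LARP6 knockdown over control) and by −log10 of the final p-value (vertical axis); the dashed line marks the largest p that passed, 0.00108, and 52 of the 12109 transcripts lie outside the axes. POSTN, FN1, CCN2 and THBS1 lie above the line on the left and TGFBI on the right, and TNC lies below it at a larger change than FN1.

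Thrombospondins are trimeric or pentameric glycoproteins that bind calcium and many receptors. THBS1, which activates latent TGF-beta and binds CD47 and CD36, had a log2 efficiency of 0.21 in knockdown cells and a derived 0.64 in control cells. THBS1 (chromosome 15, 39581093 to 39599466, plus strand) fell 1.34-fold, which the authors' deposited table lists with an adjusted p of 0.0179. THBS2 (chromosome 6, 169216192 to 169253832, minus strand), known for its role in collagen fibril assembly and as an inhibitor of angiogenesis, had a log2 efficiency of 0.41 in knockdown cells and a derived 0.18 in control cells. Its log2 change was 0.23, which did not pass (the authors' deposited table, adjusted p = 0.514). The difference between THBS1 and THBS2 was −0.65 in the log2 change and was not tested, since the table gives no standard error. Of the 3 paralogous pairs compared these are the closest, with 62.5% identity over 1163 aligned residues and coding regions of 3513 and 3519 bases.

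The CCN proteins are cysteine-rich, modular ligands of integrins and heparan sulphate, and both CCN genes are classical targets of YAP and TAZ. CCN2, connective tissue growth factor (chromosome 6, 131948176 to 131951373, minus strand, 5 exons), had a log2 efficiency of 0.29 in knockdown cells and a derived 0.63 in control cells. It fell 1.27-fold (the authors' deposited table, adjusted p = 0.00349), which ranked it 135th by size among the 136 called falls. CCN1, also known as CYR61 (chromosome 1, 85580761 to 85583962, plus strand, 5 exons), had a log2 efficiency of 0.49 in knockdown cells and a derived 0.59 in control cells. Its log2 change of −0.09 did not pass (the authors' deposited table, adjusted p = 0.925). The log2 change of CCN1 minus that of CCN2 was 0.25, which was not tested. The 2 proteins share 51.8% of 342 aligned residues.

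SPARC and TNC had log2 changes below 0 that did not pass the test. SPARC, or osteonectin, a collagen-binding protein (chromosome 5, 151661096 to 151687165, minus strand, 10 exons), had a log2 efficiency of 0.67 in knockdown cells and a derived 0.88 in control cells. Its log2 change was −0.21 (the authors' deposited table, unadjusted p = 0.00816, adjusted p = 0.2). Tenascin-C, TNC (chromosome 9, 115020534 to 115118257, minus strand, 28 exons), a hexameric protein that modulates adhesion to fibronectin, had a log2 efficiency of −1.38 in knockdown cells and a derived −0.54 in control cells. Its log2 change of −0.84 was the second largest of the 9 in size but missed the threshold (the authors' deposited table, adjusted p = 0.234, unadjusted p = 0.0112). The TNC transcript holds 7 exons of 273 bases each, coding for alternatively spliced fibronectin type III repeats, that other annotated coding forms skip.

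Size of change and call did not run in parallel among the 9. TNC, at a size of 1.78-fold, was not called, whereas CCN2 was called at 1.27-fold. In the authors' deposited table, 967 transcripts had a log2 change as low as that of TNC or lower, of which 77 (7.96%) were called. For CCN2 the numbers were 2826 transcripts and 135 calls (4.78%). The read depth behind each transcript is unknown, so the part of depth in these calls was not tested.

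The efficiency levels of the 9 spanned 3.35 log2 units in knockdown cells and 3.01 in control cells. From high to low, the order in knockdown cells was SPARC, TGFBI, CCN1, THBS2, CCN2, THBS1, POSTN, TNC and FN1. In control cells the order was POSTN, SPARC, THBS1, CCN2, CCN1, THBS2, TGFBI, TNC and FN1. POSTN thus took the 7th place in knockdown cells and the highest in control cells, while TGFBI took the second place in knockdown cells and the 7th in control cells. Without values per library, it cannot be said which neighbours in these orders differ beyond their spread. FN1 and TNC closed both orders.

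**Figure D4:**
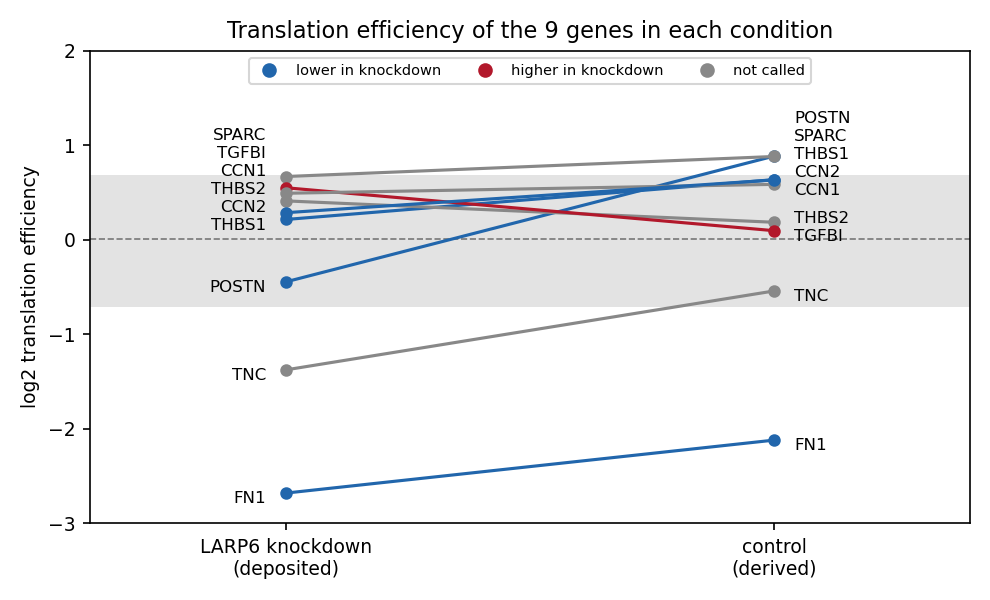
Log2 translation efficiency (vertical axis) of each gene in LARP6 knockdown cells (left, deposited) and in control cells (right, derived by taking the log2 change of the second method from the deposited knockdown value); the band and dashed line are the middle 50% and the median of all transcripts in control cells. The lines of POSTN (0.89 in control cells) and TGFBI (0.10 in control cells) cross, and FN1 lies lowest on both sides. The table gives no error for these values.

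FN1 and TNC are also the members with the longest coding regions. Of the table's protein-coding transcripts, 210 have a coding region at least as long as that of TNC, and their median log2 efficiency was −1.69 in knockdown cells and −1.61 in control cells. In knockdown cells 32 of these 210 lay below FN1 and 144 below TNC. Across the 10456 protein-coding transcripts, coding length and log2 efficiency had a Spearman rho of −0.40 in knockdown cells and −0.39 in control cells, and coding length and the log2 change a rho of −0.02. These transcripts share the same libraries and are not independent replicates. Levels of different genes also depend on which part of each transcript was counted, which the sources used here do not give.

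No 30-base window within the coding regions of the 9 transcripts occurred in an annotated transcript of another gene, and over whole transcripts at most 0.904% of windows did so, in THBS1. Annotated genes on the opposite strand overlap exons of SPARC, THBS1, TNC and CCN2, by at most 301 bases. Whether counting used strand is likewise not given, and none of those overlapping genes has a row of its own in the authors' deposited table.

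Relatives of the 9 added no further call, and only 2.2% of all transcripts were called in either direction. A lack of calls among so few genes does not show that they were unchanged. Besides the members, 8 relatives from their families were in the table, and they are named although they were chosen after their values were seen. Their log2 changes in the authors' deposited table were −1.38 for CCN3, −0.89 for CCN5, 0.10 for CCN4, −0.56 for THBS3, −0.33 for COMP, 0.32 for TNXB, −0.19 for FSTL1 and −0.07 for SPOCK1, with adjusted p-values of 0.233 or more. Osteopontin, SPP1, had a log2 change of 0.71 (the authors' deposited table, adjusted p = 0.914). Among other rows of the authors' deposited table, 15 further fibulins, nidogens and other adhesive glycoproteins included 1 that fell and 0 that rose, and their median was −0.16 on the log2 scale, with 10 below 0. Of all transcripts, 1.12% were called lower and 1.07% higher, and 47.3% lay below 0. Among the 15, the gene that fell was NID2, a basement membrane linker, by 0.48 in log2 units (the authors' deposited table, adjusted p = 0.0242).

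Receptors for these proteins lay mostly on the other side of 0. The authors' deposited table holds 21 of the listed integrin subunits, syndecans and other receptors, of which 2 rose and 0 fell. Of all transcripts, 1.07% were called higher and 1.12% lower. Of the 21, 16 were above 0 and 5 below, against 47.3% of all transcripts below 0, and the median was 0.15 on the log2 scale. Integrin beta 3, ITGB3, which pairs with the alpha V subunit in a receptor for fibronectin, periostin and other ligands, rose by 0.98 in log2 units (the authors' deposited table, adjusted p = 0.000198). CD47, a receptor for THBS1, rose by 0.82 (the authors' deposited table, adjusted p = 0.000191). On the lower side, the syndecan SDC4 narrowly missed a call at a log2 change of −0.51 (the authors' deposited table, adjusted p = 0.0545). No count of the receptors was tested against that of the 9.

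Proteins that process or crosslink fibronectin and matricellular proteins went both ways. The authors' deposited table holds 22 of them, with 5 called higher, 4 called lower and a median of 0.04 on the log2 scale. Of all transcripts, 1.07% were called higher and 1.12% lower. The transglutaminase TGM2, which crosslinks fibronectin, rose by 0.88 in log2 units (the authors' deposited table, adjusted p = 0.000133). The plasminogen activator urokinase, PLAU, was listed in the authors' deposited table as 2.18-fold higher (adjusted p = 0.049) and the protease CTSL, or cathepsin L, as 1.47-fold higher (adjusted p = 0.00019). The lysyl oxidase family member LOXL3 fell by 0.81 in log2 units (the authors' deposited table, adjusted p = 0.00137).

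Other genes described as YAP and TAZ targets were called in both directions. Besides CCN1 and CCN2, the authors' deposited table holds 25 of them, with 3 called lower, 3 called higher, 17 below 0 and a median of −0.20 on the log2 scale. Of all transcripts, 1.12% were called lower and 1.07% higher, and 47.3% lay below 0. By the authors' deposited table, the stress-inducible GADD45A fell by 0.76, the ankyrin repeat protein ANKRD1 by 0.64 and the transmembrane protein CRIM1 by 0.61 on the log2 scale. The insulin-like growth factor binding protein IGFBP3 rose by 0.54 (the authors' deposited table, adjusted p = 2.3e-08).

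Stellate cell markers had about the same median change as the 9 genes. The authors' deposited table holds 14 of these markers, of which 7 were called lower and 1 higher, against 1.12% and 1.07% of all transcripts. Their median was −0.35 on the log2 scale, with 9 of the 14 below 0, against 47.3% of all transcripts. By the authors' deposited table, the log2 changes were −1.11 for the smooth muscle actin ACTA2, −0.82 for the fibrillar collagen COL3A1, and −0.68 and −0.66 for the small proteoglycans LUM and DCN. The collagens COL1A1 and COL1A2 and the receptor PDGFRB were the other markers called lower, and VIM, the intermediate filament protein vimentin, was the one called higher. The list thus includes collagen messages, the kind that LARP6 is known for binding. These values are changes in efficiency and do not measure the abundance of the markers. The part of these markers in the changes of the 9 genes was not tested.

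**Figure D5:**
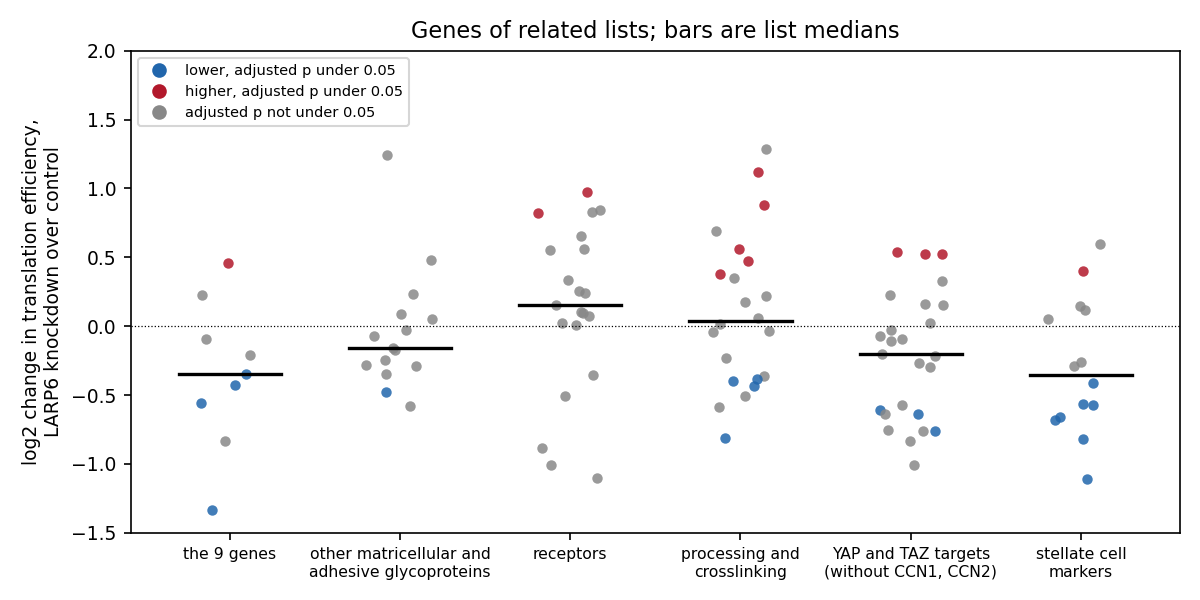
Log2 change in translation efficiency (vertical axis, LARP6 knockdown over control) of each measured gene of 6 lists from the authors' deposited table; horizontal position within a list has no meaning and black bars are medians. The median of the 9 genes is −0.35, that of other adhesive glycoproteins −0.16, that of receptors 0.15, that of processing and crosslinking proteins 0.04, that of YAP and TAZ targets −0.20 and that of stellate cell markers −0.35. No error per gene is given.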

How the data were processed

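Ribosome profiling and RNA-seq libraries were set against each other by the authors. Per the labels' protocols, cells for profiling were treated with cycloheximide, lysed, digested with RNase I and spun to pellet ribosomes, and RNA was taken up in Trizol. Bowtie and cutadapt are named in the submitters' processing notes, with the builds hg38 and GRCh38. How RNA was selected, reads counted and efficiencies compared is not stated in those notes or labels. Per the file headers, the authors deposited log2 changes by each of 2 methods and a final estimate, a log2 efficiency for the knockdown only, and p-values (by method, final and adjusted). In all 12109 transcripts the deposited final p-value is the larger of both (relative tolerance 1e-09), and its Benjamini-Hochberg adjustment gives the deposited adjusted p-value.

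For control cells, log2 efficiency was computed here by subtracting the log2 change of method 2 from the knockdown value. The last 6 digits of each identifier were matched to GENCODE 29 (11590 transcripts matched, 10560 protein-coding), and all 9 members matched. Protein identity is from global alignment of translated transcripts (Biopython 1.88). The adjustment was tested on simulated data. The count model, replicate block and leave-one-out runs that were planned need library values and were not run. Members and lists were chosen with earlier results of these data known. The rule named the 9 members, LARP6 and up to 4 of the most changed called genes per list. The members' relatives, SPP1, SDC4 and further stellate cell markers were named after their values were seen. Depth is unknown, so no interval is given.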

Additional observations from a re-analysis of the deposited data

How the results depend on the processing

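No paired analysis was possible because values of single libraries are not in the deposited table, and leaving out each replicate was not run for the same reason. Either method alone and either centring gave 27 member values that differed from the deposited change, and all 27 had its sign. No sign could have changed, since the methods differed by at most 0.0033 among members. The medians taken off were 0.015 and 0.017, and the smallest member change was −0.09, that of CCN1. The other alternatives leave the change as it is. Under the 6 alternatives with another p-value or threshold, 51 of 54 member values kept their side of it. Either method alone and a threshold of 0.1 could add calls but could not end any. Bonferroni adjustment and a threshold of 0.01 could end calls but could not add any. Bonferroni adjustment ended the calls of THBS1 (log2 change −0.42) and CCN2 (−0.35), which left 2 members lower. A stricter threshold, an adjusted p under 0.01, ended that of THBS1 (−0.42). A minimum of 1.5-fold left 1 member lower and 0 higher. Centring on the median of all or of protein-coding transcripts has no p-value of its own, so it tests no call. The members' median log2 change lay between −0.36 and −0.35 with either centring and either method alone. Which calls are limited by depth is unknown.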
